A study of Mus musculus with 12 samples.

Results

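Fat cells hold triglyceride in a lipid droplet and release it by lipolysis, and 6 genes of that pathway were followed here: Pnpla2, Abhd5, G0s2, Lipe, Pde3b and Aqp7. They were chosen by symbol from what their proteins do, with earlier results of these data known. All 6 were found among the 50559 gene symbols of the count files and passed the filter on low counts, which left 16550 genes. RNA of visceral white adipose tissue of mice was sequenced in 12 libraries. The 4 groups, with 3 libraries each, cross a heart transgene with diet. The design asks how fat tissue answers a high-fat diet and whether TGF-b1 made by the heart changes that tissue.

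The groups were transgenic mice on high-fat diet, wild-type mice on high-fat diet, transgenic mice on control diet and wild-type mice on control diet. All mice were FVB/N, and all carried a tTA driver under the alphaMHC promoter, which is active in heart muscle, so the wild-type group is a driver-only control. Transgenic mice carried an alphaMHC TGFb transgene as well, and no fat cell promoter was involved. The high-fat diet gave 60% of its energy as fat at 5.21 kcal/g, and the control chow gave 17% at 3.1 kcal/g. Mice were 8 to 10 weeks old when feeding began, and feeding lasted 2 or 6 weeks. Neither the feeding time of a given library nor the mouse it came from is labelled. The p-values therefore describe variation among the libraries, part of which may be technical.

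Each library held 20.1 to 21.3 M gene counts, and the 6 genes had between 1121 and 89916 counts in a library, so counting error was small beside the spread between libraries. The 8 white adipocyte markers were expressed in every library, at a summed 18100 to 23600 CPM, the count of a gene relative to its library's total. Transcripts of other tissues were high in a few libraries. Epithelial markers summed to 221 CPM in transgenic control replicate 2 and 32.7 CPM in wild-type control replicate 1, against 2.69 to 8.10 CPM in the other 10 libraries. Skeletal muscle markers summed to 730 CPM in transgenic control replicate 3 and 431 CPM in wild-type high-fat replicate 3, against 5.54 to 79.5 CPM elsewhere. Liver markers summed to 295 CPM in wild-type high-fat replicate 2, against 24.6 to 62.7 CPM elsewhere. Schwann cell markers summed to 200 CPM in wild-type control replicate 1, against 44.6 to 82.6 CPM elsewhere. Tests of single genes that turn on these libraries are given with and without them, while tests of ratios used all 12 libraries only. The tissue is a mixture of cells, so fewer fat cells and less RNA per fat cell cannot be told apart.

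As background, lipolysis removes the fatty acids of a triglyceride in turn. ATGL, the product of Pnpla2, takes the first, hormone-sensitive lipase, the product of Lipe, acts mainly on the diglyceride that remains, and monoglyceride lipase (Mgll) finishes the reaction. ABHD5 activates ATGL and G0S2 inhibits it. Catecholamines start the process through cAMP, insulin restrains it through the phosphodiesterase PDE3B, which degrades cAMP, and the glycerol leaves the cell through the channel AQP7.

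The promoters of the ATGL unit are shown because its lipase, activator and inhibitor were all lower on high-fat diet, with that of Aqp7, which was higher, for contrast. Each is the 250 bases before a gene start of RefSeq on GRCm38.p6, the assembly that mm10 denotes, 5′ to 3′ on the gene's strand. Capitals mark 2 of the motifs searched on both strands, GGGCGG (the GC box, also read as CCGCCC) and AGGTCA (the half-site of nuclear receptors such as PPAR-gamma, also read as TGACCT). The windows are Pnpla2 at chr7:141454938-141455187 (+), Abhd5 at chr9:122351366-122351615 (+), G0s2 at chr1:193273189-193273438 (−) and Aqp7 at chr4:41048137-41048386 (−).
Pnpla2: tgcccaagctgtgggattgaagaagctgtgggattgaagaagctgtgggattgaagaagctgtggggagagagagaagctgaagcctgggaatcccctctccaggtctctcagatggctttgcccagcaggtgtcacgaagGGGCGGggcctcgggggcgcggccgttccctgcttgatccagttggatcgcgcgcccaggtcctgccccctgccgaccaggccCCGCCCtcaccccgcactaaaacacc
Abhd5: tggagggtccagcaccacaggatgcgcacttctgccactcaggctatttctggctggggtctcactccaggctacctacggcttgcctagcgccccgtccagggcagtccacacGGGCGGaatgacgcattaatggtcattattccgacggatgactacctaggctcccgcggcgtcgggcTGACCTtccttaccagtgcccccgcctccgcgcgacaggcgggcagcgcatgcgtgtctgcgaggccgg
G0s2: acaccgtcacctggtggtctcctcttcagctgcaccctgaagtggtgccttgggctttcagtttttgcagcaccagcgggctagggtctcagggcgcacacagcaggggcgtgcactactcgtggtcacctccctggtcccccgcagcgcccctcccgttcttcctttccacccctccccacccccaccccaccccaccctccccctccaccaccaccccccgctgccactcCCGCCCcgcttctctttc
Aqp7: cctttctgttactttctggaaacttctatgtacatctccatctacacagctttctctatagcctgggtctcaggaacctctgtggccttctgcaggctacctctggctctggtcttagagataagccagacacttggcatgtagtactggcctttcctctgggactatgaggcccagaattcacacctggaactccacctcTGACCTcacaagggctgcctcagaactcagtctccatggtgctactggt
All 3 windows of the ATGL unit hold GGGCGG, as does a window of Lipe, which did not pass the diet test. No Aqp7 window holds it. GGGCGG stands in 32.7% of 32841 promoter windows of this length, so its presence is common. AGGTCA stands in the Abhd5 and Aqp7 windows and in 14% of all windows. The PPAR element, a direct repeat of AGGTCA around 1 spacer base, found in 0.0335% of windows, the cAMP response element TGACGTCA, found in 1.55%, and CCAAT, found in 33.9%, are in none of the members' windows. CACGTG, in 6.02% of windows, and GTAAACA, in 3.17%, were found for Lipe only among the members. Sequences were held for 5 of the 6 genes, and the windows of the ATGL unit are 63.2% (Pnpla2), 64.8% (Abhd5) and 67.2% (G0s2) GC, against 50.8% for the Aqp7 window shown. Of the windows not shown, the other one of Aqp7 is 56.0% GC and those of Lipe are 58.8% and 62.8%.

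Per kilobase of annotated exon, Pnpla2 was the most abundant of the 6 transcripts in all 12 libraries. It averaged 1050 ± 64.9 CPM per kb in transgenic high-fat, 725 ± 14.6 in wild-type high-fat, 1400 ± 151 in transgenic control and 1130 ± 115 in wild-type control libraries (SD, n = 3 each). The next places changed with diet. On high-fat diet Lipe came before G0s2, at 298 ± 24.1 against 239 ± 45.7 CPM per kb in transgenic and 263 ± 4.16 against 214 ± 37.0 CPM per kb in wild-type libraries. On control diet G0s2 had the higher mean, at 409 ± 94.4 against 260 ± 31.4 CPM per kb for Lipe in transgenic libraries and 338 ± 52.3 against 294 ± 3.00 CPM per kb in wild-type libraries. The 2 ranges overlapped only in the wild-type control group. Pde3b came next by its mean in every group, between 34.2 and 47.3 CPM per kb. Abhd5 had the lowest mean on high-fat diet, 31.3 and 28.3 CPM per kb in transgenic and wild type, and Aqp7 the lowest on control diet, 23.3 and 22.4 CPM per kb. Pde3b and its neighbour in that order overlapped in every group, while Aqp7 and Abhd5 overlapped on high-fat diet and were apart on control diet. These lengths join all annotated isoforms, so the order is approximate.

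The diet test called 5 of the 6 genes when both genotypes were averaged. The activator, the lipase and the inhibitor of the ATGL step fell by 0.51, 0.52 and 0.72 on the log2 scale (Abhd5, Pnpla2 and G0s2), Pde3b fell by 0.25, and the glycerol channel Aqp7 rose by 0.50. The call of Pde3b was at the threshold and was kept in only 3 of 20 alternative fits. Lipe did not pass the test, at 0.02. By edgeR's quasi-likelihood test with Benjamini-Hochberg adjustment, at an adjusted p below 0.05, 17.4% of all tested genes passed in this comparison, 7.98% lower and 9.43% higher. Within transgenic tissue 2 of the 6 passed, G0s2 lower and Aqp7 higher, where 8.73% of all genes did, 5.39% higher and 3.34% lower. Within wild-type tissue only Pnpla2 passed, lower, where 1.14% of all genes did, 0.453% lower. DESeq2 called 4 of the 6 in transgenic and 2 in wild-type tissue, and 12.7% and 4.99% of all genes. In transgenic tissue 3 of the 6 genes had every high-fat library below every control library, a pattern that 13.5% of all genes showed, and Aqp7 had the opposite one, as did 14.4%. In wild type 5 of the 6 lay apart downward (12.4% of all genes) and none upward (12.6%). The median log2 fold change of the 6 genes was -0.30 in transgenic and -0.40 in wild-type tissue, against -0.02 and -0.01 over all tested genes.

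**Figure D1:**
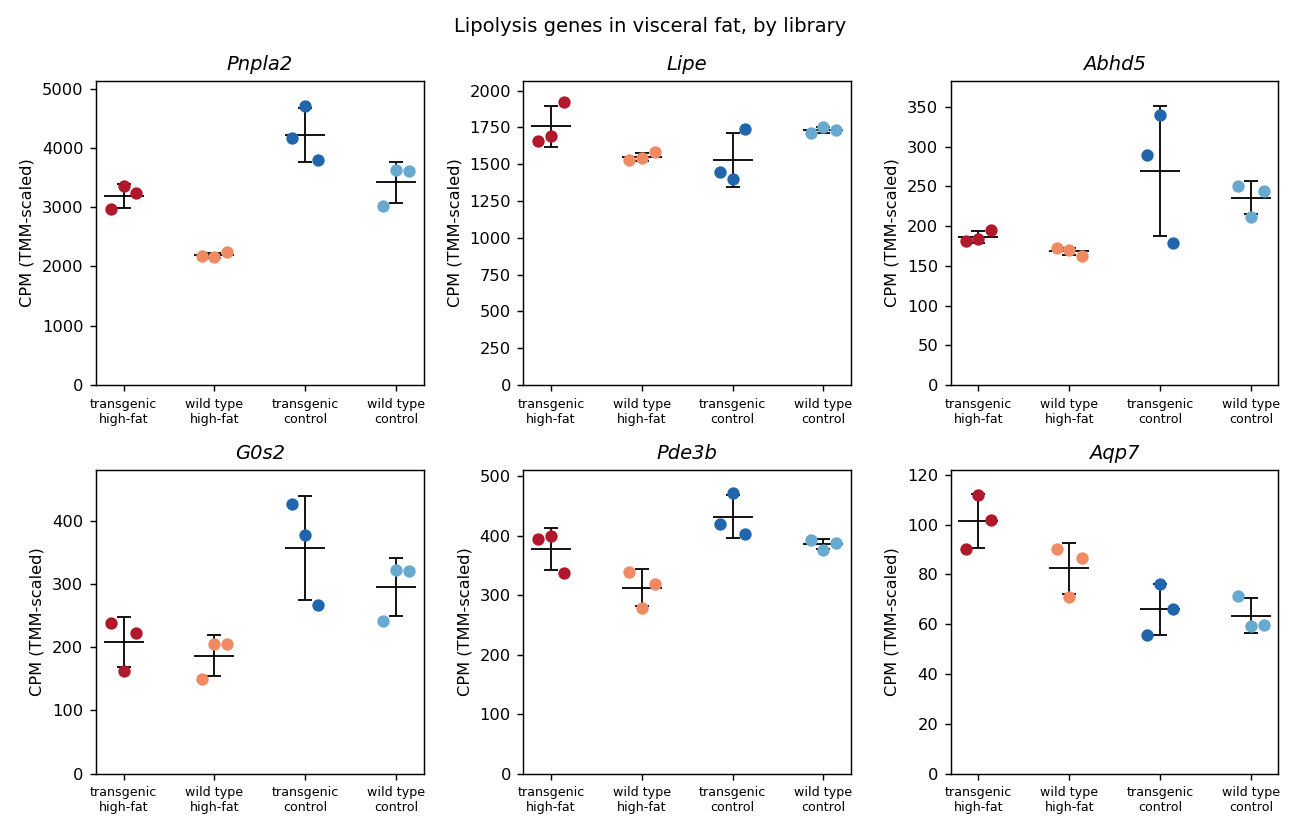
CPM scaled by TMM factors (y axis, from 0) of each of the 6 lipolysis genes in the 12 libraries, by group (x axis). Points are libraries, long bars means and whiskers SD (n = 3). Pnpla2 lies between 2160 and 2240 CPM in the wild-type high-fat libraries, below the other 9 libraries, and G0s2 is at most 239 CPM in high-fat libraries and at least 242 CPM in control libraries.

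The transgene comparison gave no call among the 6 genes on either diet, nor over both. On control diet 1 of the 6 had an unadjusted p below 0.05 (Pnpla2), where 11% of all genes did, and edgeR called 0.0363% of all genes. On high-fat diet 2 of the 6 had one (Pnpla2 and Pde3b), where 6.73% of all genes did, and edgeR called 0% of all genes. On control diet DESeq2 and limma-voom, on the same 12 libraries, called 0 of the 6, and 1.69% and 0.0483% of all genes. On high-fat diet DESeq2 called 1, Pnpla2, and 0.00933% of all genes, and limma-voom called 0 of the 6 and 0% of all genes. On control diet 2 of the 6 genes, Pnpla2 and Pde3b, had every transgenic library above every wild-type library, as 6.5% of all genes did. With high-fat diet 4 of the 6 had it (Pnpla2, Lipe, Abhd5 and Aqp7), as 7.52% of all genes did. All 6 estimates were positive on high-fat diet, with a median of 0.23 against 0.00 over all genes, and 5 of the 6 were positive on control diet. Over both diets 2 of the 6 had an unadjusted p below 0.05, where 12.3% of all genes did, and edgeR called 0% of all genes. Over both diets DESeq2 called 1 of the 6 and 1.45% of all genes, and limma-voom 0 of the 6 and 0.0121% of all genes. The same 4 groups serve all comparisons, so the diet and transgene comparisons share libraries and are not independent of each other. The genotype by diet interaction, the diet effect in transgenic minus that in wild-type tissue, was called by edgeR, DESeq2 and limma-voom for 0 of the 6 genes, had no unadjusted p below 0.05 among them, and had an unadjusted p below 0.05 for 5.61% of all genes. It was called for 0% of all genes by edgeR, 0.215% by DESeq2 and 0% by limma-voom.

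Some markers of other cells differed between the genotypes by unadjusted p beside these estimates, although edgeR called none of them on either diet. On high-fat diet all 6 brown or beige adipocyte markers had positive estimates, 3 with an unadjusted p below 0.05 and none called by edgeR, with a median log2 fold change of 2.05. Their sum was 690, 120 and 142 CPM in transgenic high-fat libraries and 32.7, 25.6 and 154 CPM in wild-type high-fat libraries, so the groups overlapped. Of the 5 liver markers tested 3 had an unadjusted p below 0.05 on that diet, with a median of -2.71. So had 2 of 6 progenitor and fibroblast markers, 1 of 6 mesothelial markers and 6.73% of all genes. On control diet all 7 macrophage markers had negative estimates, 4 with an unadjusted p below 0.05, and their sum was 515 to 563 CPM in transgenic and 671 to 854 CPM in wild-type libraries. Of 5 endothelial markers 4 had an unadjusted p below 0.05 on control diet, with sums of 581 to 704 CPM in transgenic and 450 to 564 CPM in wild-type libraries. So had 4 of 6 epithelial, 3 of 4 muscle and 3 of 6 B and T cell markers. The same held for 2 of 4 Schwann cell, 2 of 6 progenitor and fibroblast, 2 of 8 white adipocyte and 1 of 6 brown or beige adipocyte markers. Over all genes 11% had such a p on control diet. The part of these cells in the transgene estimates of the 6 genes was not tested.

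**Figure D2:**
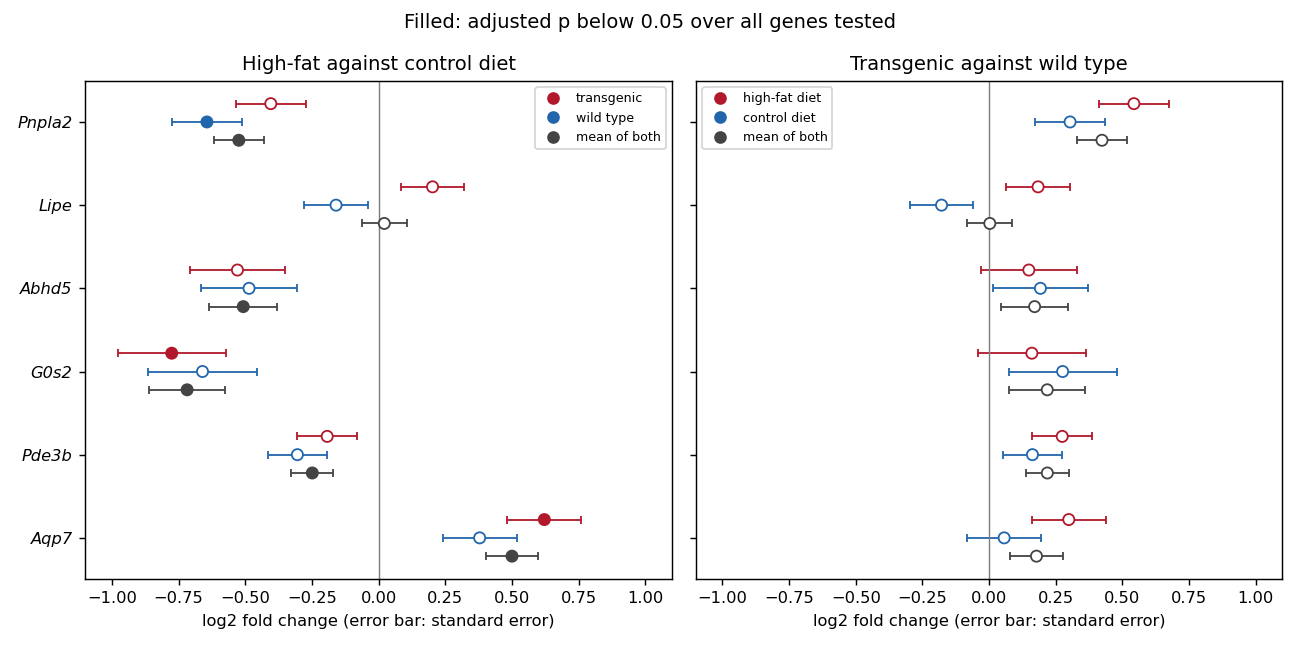
Log2 fold change (x axis) with its standard error for each gene (y axis), for high-fat against control diet (left) and transgenic against wild type (right). Filled points passed an adjusted p of 0.05 in edgeR over all tested genes: 5 genes for the mean diet effect, 2 for diet in transgenic, 1 for diet in wild type and none for the transgene.

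Pnpla2 (chromosome 7, 141455198 to 141460743, + strand, GENCODE on GRCm38) encodes ATGL, the enzyme that opens lipolysis. It stood at 2970, 3360 and 3240 CPM in transgenic high-fat libraries and at 2170, 2160 and 2240 CPM in wild-type high-fat libraries. On control diet it stood at 4160, 4710 and 3800 CPM in transgenic and at 3020, 3630 and 3610 CPM in wild-type libraries. Within each genotype every high-fat library lay below every control library, and within each diet every transgenic library lay above every wild-type library. The transgenic high-fat group and the wild-type control group overlapped. The mean diet effect was a fall of 30.5% (log2 fold change -0.52, SE 0.09, adjusted p = 0.00354), and it was called under all 20 alternatives tried. The fall in wild type (-0.64, SE 0.13, adjusted p = 0.0411) passed in only 3 of the 12 fits that left out a library, those without transgenic control replicate 2 or 3 or transgenic high-fat replicate 3, and without any of the other 9 the adjusted p ran up to 0.166, reached without the liver-rich wild-type high-fat replicate 2. In that last fit edgeR called 0 of 17003 genes, against 188 of 16550 with all libraries. It called 32 of 16873 without the epithelium-rich pair and 23 of 16880 without the muscle-rich pair. Without those pairs the Pnpla2 estimate was -0.72 (adjusted p = 0.0755) and -0.66 (adjusted p = 0.0824) in the same order, neither of them smaller than with all libraries. In transgenic tissue the value was -0.40 (SE 0.13, adjusted p = 0.0765).

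For Pnpla2 the transgene gave the largest estimates among the 6 genes. The transgenic level was 45.7% above wild type on high-fat diet (log2 fold change 0.54, SE 0.13), which ranked 20th of 16550 genes by unadjusted p (0.00135) but had an adjusted p of 0.712 by edgeR. DESeq2 on the same libraries gave it an adjusted p of 0.0118, and it was 1 of the 3 genes in all that DESeq2 called there. The authors' deposited table lists it at 0.54 with an adjusted p of 0.000127, among 0.554% of genes called. Over the alternatives the estimate stayed between 0.50 and 0.58. On control diet the estimate was 0.30 (SE 0.13, adjusted p = 0.423). The mean over both diets was 0.42 (SE 0.09, adjusted p = 0.17).

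Abhd5 (chromosome 9, 122351608 to 122381524, + strand) encodes CGI-58, which perilipin 1 holds at the droplet and which activates ATGL once released. Its level was 181, 184 and 195 CPM in transgenic high-fat and 172, 170 and 163 CPM in wild-type high-fat libraries. The control-diet values were 289, 340 and 179 CPM in transgenic and 251, 212 and 244 CPM in wild-type libraries. The 6 high-fat values were close together, and the transgenic control group was the most scattered, with a CV of 30.6% against 2.83% to 8.75% in the other groups. Its lowest value was in the library with the most muscle transcripts, and its highest in the library with the most epithelial transcripts, and their part in its level was not tested. The mean diet effect was -0.51 (SE 0.13, adjusted p = 0.0178). Without both epithelium-rich libraries it was -0.38 and no longer passed (adjusted p = 0.0708), while without both muscle-rich libraries it was -0.61 (adjusted p = 0.0025).

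Within genotypes the fall of Abhd5 was of like size, and neither passed edgeR's test. It was -0.53 (SE 0.18, adjusted p = 0.0861) in transgenic and -0.49 (SE 0.18, adjusted p = 0.181) in wild-type tissue. Leaving out transgenic control replicate 3 alone brought both past the threshold, at -0.75 (adjusted p = 0.00441) in transgenic and -0.49 (adjusted p = 0.0402) in wild-type tissue. In each genotype that was the only 1 of the 12 fits leaving out a library that passed. Over those fits the estimate ran from -0.75 to -0.32 in transgenic tissue, with an adjusted p of up to 0.278. In wild type it ran from -0.55 to -0.43, with an adjusted p of up to 0.369. The transgene estimates were 0.15 (SE 0.18) on high-fat diet and 0.19 (SE 0.18) on control diet, neither past the test. On the opposite strand A730085K08Rik shares 16.0% of the exon bases of Abhd5, and its own count was 0 to 8 in the 12 libraries.

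G0s2 (chromosome 1, 193272161 to 193273217, − strand) encodes the inhibitor of ATGL. It stood at 239, 163 and 222 CPM in transgenic high-fat and at 149, 205 and 205 CPM in wild-type high-fat libraries. Control-diet libraries had 426, 378 and 266 CPM in transgenic and 242, 322 and 320 CPM in wild-type libraries. All 6 high-fat libraries lay below all 6 control libraries, although narrowly, a pattern that 2.79% of all genes showed. Its mean diet effect was the largest of the 6 genes, a fall of 39.2% (-0.72, SE 0.14, adjusted p = 0.00633), called under all 20 alternatives. The fall in transgenic tissue was -0.78 (SE 0.20, adjusted p = 0.036). That call was kept in 5 of the 12 fits that left out a library, and the adjusted p reached 0.14 without transgenic control replicate 1, 0.117 without transgenic high-fat replicate 2 and 0.0947 without transgenic high-fat replicate 3. It was 0.091 without transgenic control replicate 2, 0.0521 without transgenic high-fat replicate 1, 0.0505 without wild-type control replicate 2 and 0.0517 without wild-type high-fat replicate 2. Without both epithelium-rich libraries it was 0.0904. In wild type it was -0.66 (SE 0.20, adjusted p = 0.121). Transgene estimates were 0.16 (SE 0.20) on high-fat and 0.28 (SE 0.20) on control diet, neither past the test.

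Lipe (chromosome 7, 25379527 to 25398710, − strand) encodes hormone-sensitive lipase and passed the diet test in neither genotype. It stood at 1660, 1690 and 1920 CPM in transgenic high-fat and at 1530, 1540 and 1580 CPM in wild-type high-fat libraries. With control diet it stood at 1450, 1400 and 1740 CPM in transgenic and at 1710, 1750 and 1730 CPM in wild-type libraries. Every wild-type high-fat library lay below every wild-type control library, by little, whereas the transgenic groups overlapped. The mean diet effect was 0.02 with a 95% interval of -0.16 to 0.20 on the log2 scale (adjusted p = 0.887), an interval that excludes a fall as large as that estimated for Pnpla2. It was 0.20 (SE 0.12, adjusted p = 0.31) in transgenic and -0.16 (SE 0.12, adjusted p = 0.514) in wild-type tissue. The interaction was 0.36 (SE 0.17), the largest of the 6 genes, with an unadjusted p of 0.0524 and an adjusted p of 0.864 by edgeR. Transgene estimates were 0.18 (SE 0.12) on high-fat and -0.18 (SE 0.12) on control diet, neither past the test. The antisense gene 4732471J01Rik shares 15.6% of the exon bases of Lipe and had 72 to 140 counts in a library.

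Pde3b (chromosome 7, 114415281 to 114539251, + strand) encodes the phosphodiesterase of the insulin brake. It stood at 395, 400 and 337 CPM in transgenic high-fat and at 339, 278 and 319 CPM in wild-type high-fat libraries. On control diet it stood at 419, 472 and 403 CPM in transgenic and at 393, 376 and 388 CPM in wild-type libraries. High-fat values lay below control values within each genotype. Over both genotypes the fall was 15.8% (-0.25, SE 0.08, adjusted p = 0.049). That call is at the threshold: it was kept in 3 of 20 alternatives (DESeq2, limma-voom and without transgenic control replicate 3), and the estimate was -0.13 (adjusted p = 0.301) when libraries were scaled to the white adipocyte markers. Without any of the other 11 libraries the adjusted p ran up to 0.121. Within genotypes the values were -0.19 (SE 0.11, adjusted p = 0.304) in transgenic and -0.30 (SE 0.11, adjusted p = 0.182) in wild-type tissue. The transgene estimate was 0.27 (SE 0.11, adjusted p = 0.714) on high-fat and 0.16 (SE 0.11, adjusted p = 0.634) on control diet.

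Aqp7 (chromosome 4, 41033074 to 41048139, − strand) encodes the channel through which glycerol leaves the fat cell. It was the only one of the 6 genes that edgeR called higher on high-fat diet. It stood at 90.4, 112 and 102 CPM in transgenic high-fat and at 90.2, 70.8 and 86.5 CPM in wild-type high-fat libraries. Levels on control diet were 55.6, 76.2 and 66.2 CPM in transgenic and 71.5, 59.1 and 59.7 CPM in wild-type libraries. The transgenic groups were apart, and in wild type 1 high-fat library (70.8 CPM) lay just under the highest control library (71.5 CPM). The mean rise was 41.4% (0.50, SE 0.10, adjusted p = 0.00587), called under all 20 alternatives. It was 0.62 (SE 0.14, adjusted p = 0.0192) in transgenic and 0.38 (SE 0.14, adjusted p = 0.179) in wild-type tissue. The transgenic call was kept in 9 of the 12 fits that left out a library. It was lost without transgenic control replicate 1 (adjusted p = 0.0701), transgenic high-fat replicate 2 (0.0528) or transgenic high-fat replicate 3 (0.0555), and without both muscle-rich libraries (0.0531). The interaction was 0.24 (SE 0.20, adjusted p = 0.917), so the difference between those estimates did not pass a test. Transgene estimates were 0.30 (SE 0.14) on high-fat and 0.06 (SE 0.14) on control diet, neither past the test.

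The authors' deposited tables listed more of the 6 genes as changed by diet. In transgenic tissue the authors' deposited table gave Pnpla2 (adjusted p = 0.0283) and G0s2 (0.00279) lower and Aqp7 (0.00287) higher, with 9.88% of genes called. In wild type the authors' deposited table gave Pnpla2 (adjusted p = 2.17e-06), Abhd5 (0.000611) and G0s2 (0.00475), all lower, with 5.98% of genes called. Lipe and Pde3b passed in none of these tables. For the transgene on control diet the authors' deposited table listed none of the 6 genes, with 0.942% of genes called.

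Ratios of 2 genes within a library do not depend on the scaling of libraries, and they were compared for all 15 pairs. The lipase ratio Pnpla2/Lipe, in counts, was 1.78, 1.98 and 1.69 in transgenic high-fat and 1.42, 1.40 and 1.42 in wild-type high-fat libraries. On control diet it was 2.88, 3.36 and 2.18 in transgenic and 1.77, 2.07 and 2.09 in wild-type libraries. High-fat libraries lay below control libraries in both genotypes and transgenic libraries above wild-type libraries on both diets. The ratio fell with diet by 0.54 on the log2 scale and was higher by 0.42 with the transgene. Each gave p = 0.005 in a two-sided exact permutation test of 400 arrangements within genotype or within diet, the smallest p that test can give (0.0214 after Benjamini-Hochberg adjustment over the 30 ratio tests). It was the only one of 15 pairs to pass for the transgene. How often pairs of other genes pass, for the transgene or for diet, was not computed, and no library was left out.

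**Figure D3:**
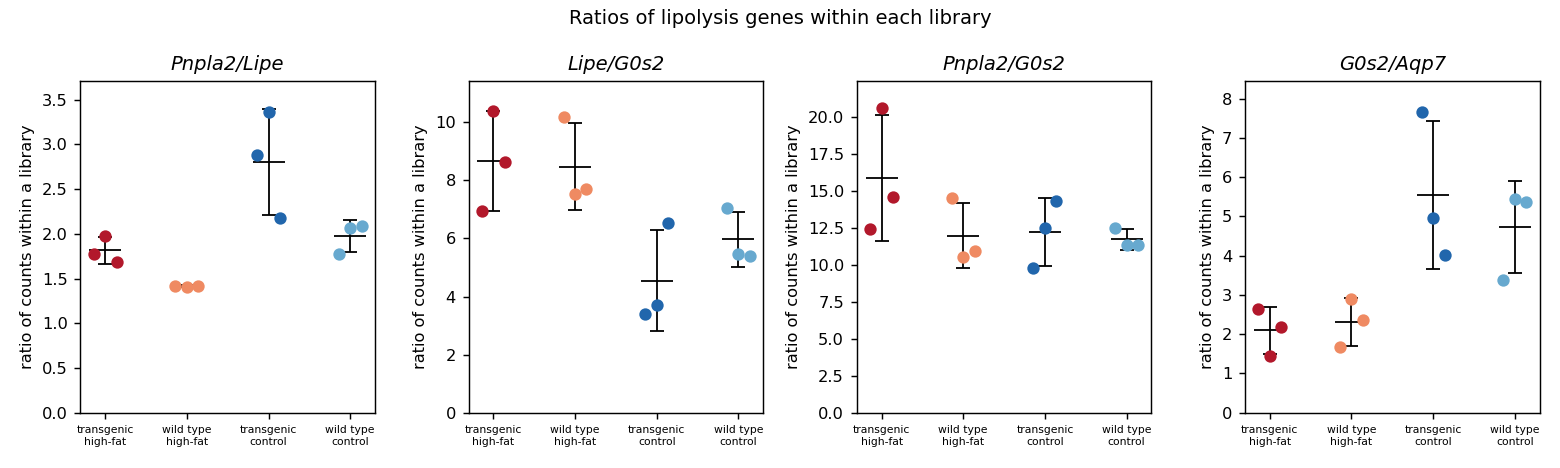
Ratios of counts within a library (y axis, from 0) for 4 pairs of genes, by group (x axis). Points are libraries, long bars means and whiskers SD (n = 3). Pnpla2/Lipe, Lipe/G0s2 and G0s2/Aqp7 separate the diets within each genotype, and Pnpla2/G0s2 overlaps between diets.

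Of the 15 ratios, which are not independent where they share a gene, 7 passed with diet. By the same exact permutation test every ratio to Aqp7 did, from -0.48 for Lipe/Aqp7 (p = 0.01, adjusted 0.0375) to -1.22 for G0s2/Aqp7 (p = 0.005, adjusted 0.0214). Lipe/G0s2 was higher by 0.74 (exact permutation p = 0.005, adjusted 0.0214). It averaged 8.66 ± 1.73 and 8.48 ± 1.49 in transgenic and wild-type high-fat libraries and 4.55 ± 1.73 and 5.97 ± 0.941 in transgenic and wild-type control libraries (SD, n = 3 each). The 3 ratios within the ATGL unit did not pass. Pnpla2/Abhd5 moved by -0.04 (exact permutation p = 0.765), Pnpla2/G0s2 by 0.20 (p = 0.28) and Abhd5/G0s2 by 0.23 (p = 0.165). Lipase to inhibitor, Pnpla2/G0s2, averaged 15.9 ± 4.24 in transgenic high-fat, 12 ± 2.2 in wild-type high-fat, 12.2 ± 2.28 in transgenic control and 11.7 ± 0.693 in wild-type control libraries (SD, n = 3 each). Lipe/Abhd5 reached an exact permutation p of 0.015 (adjusted 0.05) and stood at the threshold.

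Fat cell content was gauged from the 8 white adipocyte markers. Their summed level was 19000 to 20100 CPM in transgenic high-fat, 18400 to 19800 in wild-type high-fat, 18100 to 23600 in transgenic control and 18200 to 23300 in wild-type control libraries. Of the 8 markers 1 passed the diet test, Adig, lower in both genotypes, and their median log2 fold change was 0.02 in transgenic and -0.17 in wild-type tissue. Relative to the geometric mean of these markers, Pnpla2 stood at 265% to 314% in transgenic high-fat, 205% to 213% in wild-type high-fat, 342% to 399% in transgenic control and 278% to 303% in wild-type control libraries. The diets were thus apart within each genotype on this scale too, and the genotypes within each diet. Aqp7 stood at 8.07% to 10.5% in transgenic high-fat, 6.98% to 8.68% in wild-type high-fat, 4.57% to 6.46% in transgenic control and 4.93% to 6.57% in wild-type control libraries. That scaling moved the median of all genes by 0.12 for the mean diet effect, and on it Pnpla2 (-0.40), Abhd5 (-0.38), G0s2 (-0.59) and Aqp7 (0.61) passed while Pde3b did not.

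Markers of other cells moved with diet as well. In the mean diet effect 9.43% of all genes were called higher and 7.98% lower. Of 7 macrophage markers 2 were higher (Cd68 and Mpeg1) in the mean diet effect, and their sum was 686 to 1000 CPM in transgenic high-fat, 734 to 921 in wild-type high-fat, 515 to 563 in transgenic control and 671 to 854 in wild-type control libraries. Of 6 mesothelial markers 4 were lower (Upk3b, Krt19, Wt1 and Upk1b), with sums of 111 to 328 CPM, 322 to 425, 581 to 628 and 508 to 821 in the same order of groups. Of the 6 brown or beige adipocyte markers edgeR called none for diet. Their estimates were all positive in transgenic (median 0.84) and all negative in wild-type tissue (median -1.06), which the mean diet effect averages, and they summed to 120 to 690, 25.6 to 154, 57.2 to 252 and 26.7 to 241 CPM. In the mean diet effect edgeR also called 3 of 6 B and T cell markers and 3 of 5 liver markers higher, 1 of 5 endothelial markers higher, 3 of 6 epithelial markers and 1 of 4 Schwann cell markers lower, and, of 6 progenitor and fibroblast markers, 1 higher and 2 lower. Progenitor and fibroblast markers summed to 2260 to 2700, 2730 to 3260, 2740 to 3560 and 3140 to 4230 CPM, and B and T cell markers to at most 12.7 CPM in any library. None of the 4 muscle markers tested was called or had an unadjusted p below 0.05 in the mean diet effect, which averages opposite estimates. All 4 were negative in transgenic (median -4.40) and positive in wild-type tissue (median 6.00). By edgeR 1 and 3 of them had an unadjusted p below 0.05 there, and none was called. Each genotype includes 1 of the 2 muscle-rich libraries. The part of these cell types in the changes of the 6 genes was not tested.

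Most other genes of the pathway did not pass the diet test. Of 57 other genes of lipolysis in 6 lists, 56 were tested, and the mean diet effect called 5 higher and 3 lower, 8 of 56, where 17.4% of all genes were called. In transgenic tissue 2 of the 56 were higher and 2 lower, where 5.39% and 3.34% of all genes were. In wild type 1 was lower, where 0.453% of all genes were. For the transgene on control diet 1 was lower, where edgeR called 0.0363% of all genes in either direction. The median log2 fold change of the 56 genes was -0.02 for the mean diet effect, as over all genes.

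Among the other lipases, Mgll, which frees glycerol in the last step, rose and Ces1d, a carboxylesterase with lipase activity, fell. Mgll averaged 3470 ± 523 CPM in transgenic high-fat, 3060 ± 161 in wild-type high-fat, 2290 ± 119 in transgenic control and 2390 ± 214 in wild-type control libraries (SD, n = 3 each). Its mean diet effect was 0.48 (SE 0.10, adjusted p = 0.00693), and that of Ces1d was -0.51 (SE 0.13, adjusted p = 0.0217). Mgll was called in all 20 alternatives and Ces1d in 12, with an adjusted p of at most 0.0601 in the others. Transcripts of the first and last enzymes thus moved in opposite directions. None of the 7 droplet proteins passed edgeR's test in the mean diet effect, nor had an unadjusted p below 0.05. Plin1, which holds ABHD5 at rest, averaged 1790 ± 112 CPM in transgenic high-fat, 1530 ± 111 in wild-type high-fat, 1670 ± 164 in transgenic control and 1570 ± 67.6 in wild-type control libraries, with a mean diet effect of 0.03 (SE 0.08).

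Upstream, 1 of 13 genes of the receptor and cAMP arm that starts lipolysis rose, the adenylyl cyclase Adcy6 (0.22, SE 0.07, adjusted p = 0.0455). The main fat cell beta-receptor Adrb3 did not pass (-0.31, SE 0.17, adjusted p = 0.237). Of 13 receptors and enzymes that restrain lipolysis 3 rose and 1 fell. Over all genes 9.43% were called higher and 7.98% lower in the mean diet effect. Npr3, which clears natriuretic peptides from the tissue, rose by 0.93 (SE 0.09, adjusted p = 0.000196), Pde4b, a cAMP phosphodiesterase, by 0.63 (SE 0.13, adjusted p = 0.00673) and Ffar2, a receptor of short-chain fatty acids, by 0.57 (SE 0.18, adjusted p = 0.0446). Pde3a, the close relative of Pde3b, fell by 0.41 (SE 0.11, adjusted p = 0.0228). Npr3 and Pde4b were called in all 20 alternatives, Pde3a in 13, Ffar2 in 9 and Adcy6 in 7, and when a library was left out Pde3a was called in 7 of 12 fits, Ffar2 in 3 and Adcy6 in 3.

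Npr3 was also the only pathway gene called for the transgene. It averaged 1460 ± 225 CPM in transgenic high-fat, 1610 ± 48.5 in wild-type high-fat, 581 ± 34.1 in transgenic control and 1110 ± 36.0 in wild-type control libraries (SD, n = 3 each). On control diet it was lower in transgenic tissue by a log2 fold change of -0.93 (SE 0.13, adjusted p = 0.0315). That call was kept in 8 of 21 alternatives, with estimates of -0.98 to -0.91. When a library was left out it was kept in 4 of 12 fits, those without transgenic control replicate 3, transgenic high-fat replicate 1, wild-type control replicate 3 or wild-type high-fat replicate 1, and the adjusted p reached 0.171 in the others. It was also lost without the epithelium-rich pair (0.235) and with scaling to the adipocyte markers (0.106). The diet effect was 1.33 in transgenic and 0.54 in wild-type tissue, and the interaction of 0.79 (SE 0.18) had an adjusted p of 0.618.

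In the mean diet effect, where 7.98% of all genes were called lower, 1 of the 9 genes of the insulin arm above Pde3b fell. This was Pik3r1, a regulatory subunit of PI 3-kinase. It averaged 101 ± 12.8 CPM in transgenic high-fat, 100 ± 0.705 in wild-type high-fat, 180 ± 50.1 in transgenic control and 227 ± 21.5 in wild-type control libraries (SD, n = 3 each). The fall passed in transgenic (-0.83, SE 0.17, adjusted p = 0.0128) and in wild-type tissue (-1.18, SE 0.17, adjusted p = 0.0178). In wild type it no longer passed without wild-type control replicate 1 (adjusted p = 0.0679) or 2 (0.0573) and without wild-type high-fat replicate 1 (0.0679), 2 (0.102) or 3 (0.0589), nor without the muscle-rich pair (0.0537), with estimates of -1.25 to -1.03 over all alternatives. In transgenic tissue it no longer passed without transgenic high-fat replicate 3 (adjusted p = 0.0561). None of the 8 genes that handle the released fatty acids and glycerol passed edgeR's test in the mean diet effect, although 4 had an unadjusted p below 0.05, as 32.4% of all genes did. Pck1, which makes new glycerol phosphate, had -0.35 (SE 0.13, adjusted p = 0.0907) and Gk, which reuses glycerol, 0.70 (SE 0.30, adjusted p = 0.119).

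**Figure D4:**
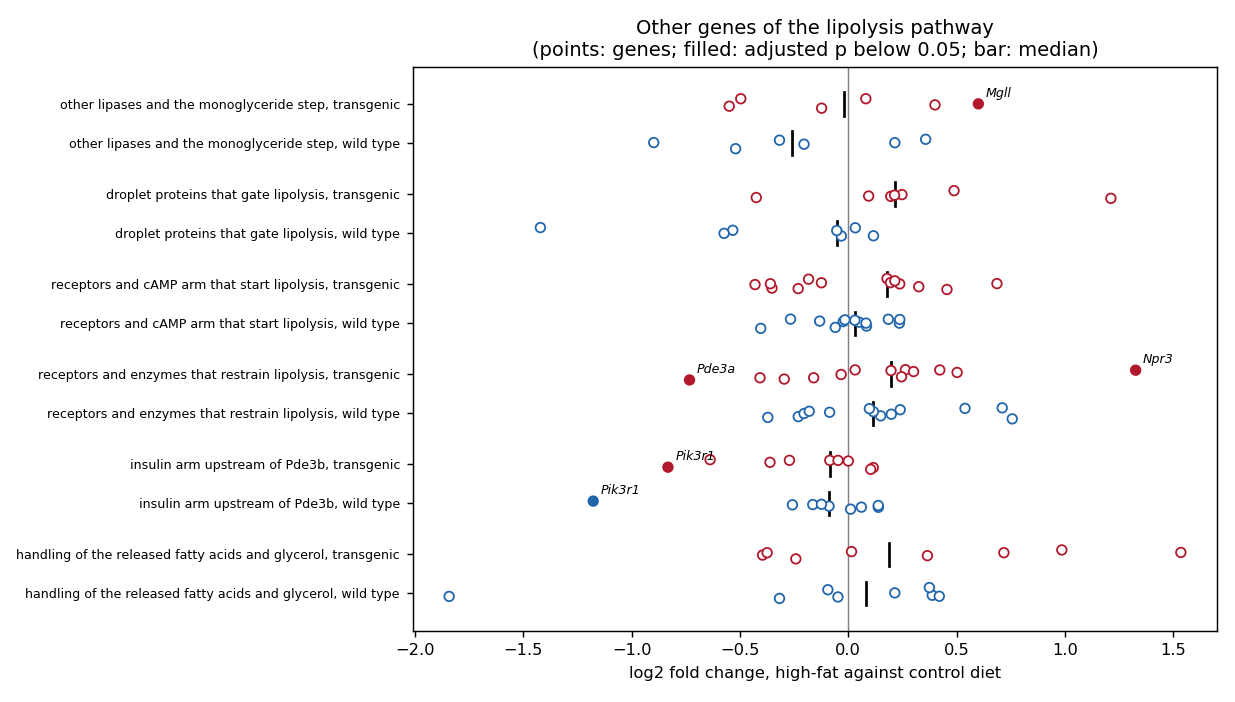
Log2 fold change for high-fat against control diet (x axis) of the 56 other pathway genes in 6 lists (y axis), in transgenic (red) above wild-type (blue) tissue. Filled points passed an adjusted p of 0.05 in edgeR, black bars are list medians, and the named genes are Mgll, Npr3, Pde3a and Pik3r1, the last called in both genotypes.

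With members and predicted genes left out, the genes whose log2 CPM followed each member most closely were named by Pearson r. It was taken over the 12 libraries as a description only, since the libraries share diet, genotype and tissue makeup. For Pnpla2 the closest genes were Alas2 (0.94), Nicn1 (0.93) and Wbp1 (0.93). For Abhd5 they were Fst (0.96), Gxylt2 (0.94) and Hemk1 (0.93), and for G0s2 Mrpl36 (0.95), Tmem238 (0.95) and Dgcr6 (0.95). Lipe was closest to Plbd2 (0.90), Fbxw8 (0.88) and Engase (0.87), Pde3b to Dnajc30 (0.94), Bcl2l1 (0.92) and Suox (0.92), and Aqp7 to Smap2 (0.93), Plxna3 (0.92) and Dgkh (0.92). None of the 18 is a white adipocyte marker used here, and no gene was shared between members.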

How the data were processed

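RNA of visceral white adipose tissue was measured in 12 libraries, grouped by their titles, with 3 in each of 4 groups. The authors deposited whole-number read counts per gene that had not been normalized, and 4 tables of their own comparisons. Those tables hold, per the file headers, the output of DESeq2: a mean normalized signal and a log2 fold change, with a score and p-values for it. The submitters' processing notes name the build mm10 and the tools HISAT2 (2.2.0), HTSeq (2.0) and DESeq2 (1.32.0). Sources used here give neither the annotation nor the strand setting, so reads from bases that a gene shares with an antisense partner cannot be assigned to a strand. The 5 entries that name no gene, 16.8% to 21.0% of reads, stayed out of library sizes and tests.

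Counts were fitted in R 4.3.3 with edgeR 4.0.16 (glmQLFit and glmQLFTest) with 1 mean per group over all 12 libraries, which left 8 residual degrees of freedom. Genes were kept by filterByExpr (minimum count 10, minimum total 15) and scaled by TMM. P-values were adjusted by the Benjamini-Hochberg method over all 16550 tested genes, and called means an adjusted p below 0.05. A standard error is the size of the log2 fold change over the root of its F. The mean diet effect averages both genotypes, and the mean transgene effect both diets. Log2 CPM used a prior count of 2. Ratios of counts were tested by exact permutation within strata. Counts were simulated once, with 200 genes changed by diet in both genotypes, and 16334 genes passed the filter. On these counts the mean diet comparison recovered 59.7% of changes of 1.5-fold and 80.6% of changes of 2-fold. In transgenic tissue alone it recovered 8.96% and 62.7%, and in wild type alone 28.4% and 67.2%.

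Gene positions and exon lengths come from GENCODE on GRCm38, and promoters from RefSeq on GRCm38.p6. Alternatives were DESeq2 1.42.0, limma-voom (limma 3.58.1) with quality weights, RLE factors, scaling to 8 white adipocyte markers, no filter beyond 1 count, only the libraries compared, a replicate block, and leaving out the epithelium-rich pair, the muscle-rich pair or each library. All 6 genes are named in every comparison. Of the pathway lists, called genes with the smallest adjusted p are named, and genes with values that did not pass (Plin1, Adrb3, Pck1 and Gk) were chosen after their values were seen. The called pathway genes were put through the same alternatives after their values were seen. The 6 genes, the lists and the alternatives were chosen with earlier results of these data known.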

Additional observations from a re-analysis of the deposited data

Results flagged for a closer look

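Of the 6 lipolysis genes and 56 tested pathway genes, 1 showed opposite diet effects in the genotypes without overlap, as did 48 of all 16550 tested genes (0.29%). Adrb1, the beta-1 adrenergic receptor, stood at 14.4, 9.69 and 10.9 CPM in transgenic high-fat libraries and at 8.88, 6.96 and 5.87 CPM in transgenic control libraries. In wild type it stood at 7.94, 6.86 and 7.66 CPM in high-fat libraries and at 8.73, 12.4 and 8.56 CPM in control libraries. Every high-fat library thus lay above the control libraries in transgenic and below them in wild-type tissue. The interaction was 1.09 on the log2 scale (SE 0.29), with an unadjusted p of 0.00271 and an adjusted p of 0.736 by edgeR over all genes, so it did not pass. The diet effects were 0.69 (adjusted p = 0.0597) in transgenic and -0.40 (adjusted p = 0.327) in wild-type tissue, and neither passed.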

How the results depend on the processing

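In the mean diet effect, 5 genes were called, against 4 to 5 when a library was left out and 3 without both epithelium-rich libraries. Over all genes edgeR called 2882 of 16550 in the main fit, 1868 to 2993 when a library was left out and 1865 of 16873 without that pair. Pnpla2, G0s2 and Aqp7 were called in 20 of 20 alternatives, Abhd5 in 19 and Pde3b in 3. In transgenic tissue 2 were called, against 4 by DESeq2 (which called 12.7% of all genes, against 8.73% by edgeR), 1 with only the libraries compared, 1 without both epithelium-rich libraries, and 0 to 3 when a library was left out. Over all genes edgeR called 1445 of 16550 there in the main fit and 764 of 15764 with only the libraries compared. It called 826 of 16873 without the epithelium-rich pair and 543 to 1504 when a library was left out. In wild type 1 was called, against 2 by DESeq2 (4.99% of all genes, against 1.14% by edgeR), 0 with only the libraries compared, with scaling to the adipocyte markers and without the epithelium-rich or the muscle-rich pair, and 0 to 2 when a library was left out. Over all genes edgeR called 188 of 16550 in the main fit, and 226 of 15817, 338 of 16550, 32 of 16873 and 23 of 16880 under those 4 settings. The count was 0 to 269 when a library was left out. For the transgene 0 were called, and DESeq2 called 1 on high-fat diet and 1 over both diets. Between libraries of the same replicate number, correlations of deviations from the group mean ran from -0.07 to 0.16. Those of unlike number were not computed, so this does not settle whether libraries were paired. With the replicate block 1 gene was called in transgenic and 0 in wild-type tissue, and the estimate of Lipe for the transgene over both diets was -0.002.

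Signs changed only for estimates that did not pass. Lipe over both diets, transgenic against wild type, was -0.0297 by limma-voom, -0.006 with scaling to adipocyte markers, -0.0008 without the filter, -0.0427 without the muscle-rich pair and -0.0498 to 0.027 when a library was left out. The mean diet effect of Lipe was -0.0079 without the epithelium-rich pair and -0.004 to 0.0725 when a library was left out. Without that pair the interaction was 0.11 for Abhd5 and 0.0538 for G0s2, and leaving out a library gave -0.27 to 0.16 for Abhd5 and -0.29 to 0.0376 for G0s2. On control diet the transgene estimate ran when a library was left out from -0.0146 to 0.42 for Abhd5 and from -0.0641 to 0.16 for Aqp7. The causes were not tested. Each of the 6 genes had at least 1121 counts in a library, so depth limits them little.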
